A study of Homo sapiens with 18 samples.

Results

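The comparison described here is between CD10+ cells of MC26 and CD10+ cells of MCF10A-CT, each measured on 2 arrays, so that 4 of the 18 arrays of the series carry it. The arrays were chosen by their labels alone, and all genes were kept, with 1 probe set standing for each of 19775 genes. Of these, 12171 were bright enough to be tested.

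MCF10A is an immortalised, non-tumorigenic human mammary epithelial line with a deletion of CDKN2A, and MCF10A-CT are the untreated control cells, grown in standard medium. Unsorted MCF10A cells kept for a long time with BMP2, a growth factor, and IL6, a cytokine, gave rise to MC26, and the medium of MC26 still held both, IL6 at 10 ng/ml and BMP2 at 5 ng/ml by the sample labels or 10 ng/ml by the growth protocol. Both media held horse serum, insulin, hydrocortisone, cholera toxin and EGF. Cells were stained for membrane CD10 and sorted by flow cytometry, and the series also holds CD10- and unsorted cells of both lines and the same 3 populations of M1B26, a derivative of BMPR1B+ MCF10A cells picked as soft-agar clones and kept, like MC26, in BMP2 and IL6. The arrays are named biological replicates, but no source used here says which sorted fractions came from the same culture. The history of MC26 and the BMP2 and IL6 in its medium cannot be told apart in these arrays.

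CD10, encoded by MME, is a zinc-dependent endopeptidase on the cell surface that cleaves small signalling peptides, and in the breast it marks myoepithelial cells and some immature cells. BMP2 acts through type I and type II serine/threonine kinase receptors, such as BMPR1B, which phosphorylate SMAD proteins and raise the ID genes. IL6 acts through its receptor and gp130 on JAK kinases and STAT3, with SOCS3 as a feedback target. Values below are array intensities after scaling by the authors, differences are MC26 minus MCF10A-CT on the scale of log2(intensity + 1), and errors after ± are standard errors (SE) from limma with n = 2 arrays per group. A gene was called where its Benjamini-Hochberg adjusted p over all genes tested was under 0.05.

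MME followed the sort in both lines. Its intensity was 69.8 and 90.7 in the CD10+ MC26 arrays and 48.3 and 65.0 in the CD10+ MCF10A-CT arrays, against 27.9 and 6.39 in CD10- MC26 and 9.73 and 11.3 in CD10- MCF10A-CT. Both MC26 arrays lay above both control arrays, yet the difference between the lines in CD10+ cells, 0.50 ± 0.64, did not pass (limma adjusted p = 0.64). The cells carried epithelial keratins in both lines, with KRT5, a basal keratin, at 3780 to 5890 and KRT18, a luminal keratin, at 3640 to 4190 over the 4 arrays. Summed over its 18 genes, the basal and myoepithelial list ranged from 28480 to 31580 in CD10+ MC26 and from 29480 to 29840 in CD10+ MCF10A-CT. The mesenchymal list, of 31 genes, summed to 9623 to 10470 in MC26 and 13920 to 14550 in MCF10A-CT, which did not overlap. Such a sum rests largely on bright genes, here VIM (4700 and 5190 in MC26, 6000 and 6540 in MCF10A-CT) and S100A4, given below. The mean log2 level of the 22 genes tested differed little, at 6.69 and 6.89 against 6.94 and 7.03. Of all genes tested, 57.8% did not overlap between the lines either. The leukocyte and endothelial list summed to 706 to 716 in MC26 and 674 to 780 in MCF10A-CT, and 13 of its 25 genes, PTPRC (the pan-leukocyte antigen CD45) among them, lay under the test's brightness limit on all 4 arrays.

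The sorted control arrays stood apart from the rest of the series, which bears on every result below. In MCF10A-CT, 1666 genes differed between CD10+ and unsorted cells (13.7% of those tested), with 437 higher (3.59%) and 1229 lower (10.1%) in CD10+ cells. In MC26 only 25 did (0.205%), 16 higher (0.131%) and 9 lower (0.0739%). The mean level of 51 genes of G1-S phase and DNA replication was 7.82 and 6.88 on the log2 scale in the CD10+ MCF10A-CT arrays and 7.58 and 6.61 in the CD10- ones. On every other array of the series it lay between 8.14 and 9.69. How the sorted control cells were handled before RNA extraction was not tested as a source of this.

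Between CD10+ MC26 and CD10+ MCF10A-CT cells, 1639 genes differed in limma, 13.5% of those tested, with 973 higher (7.99%) and 666 lower (5.47%) in MC26. For all 1639 the 4 arrays did not overlap between the lines, as was also the case for 57.8% of all genes tested. The median difference over all genes was 0.08. Among the genes called, 662 were at least 2-fold higher and 510 at least 2-fold lower, and 121 and 158 passed 4-fold. The G1-S and G2-M lists held 95 of the higher genes, and 878 lay outside both. The count changed with single arrays: it was 234 without MCF10A-CT replicate 2, 545 without MC26 replicate 1 and 406 without MC26 replicate 2.

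**Figure D1:**
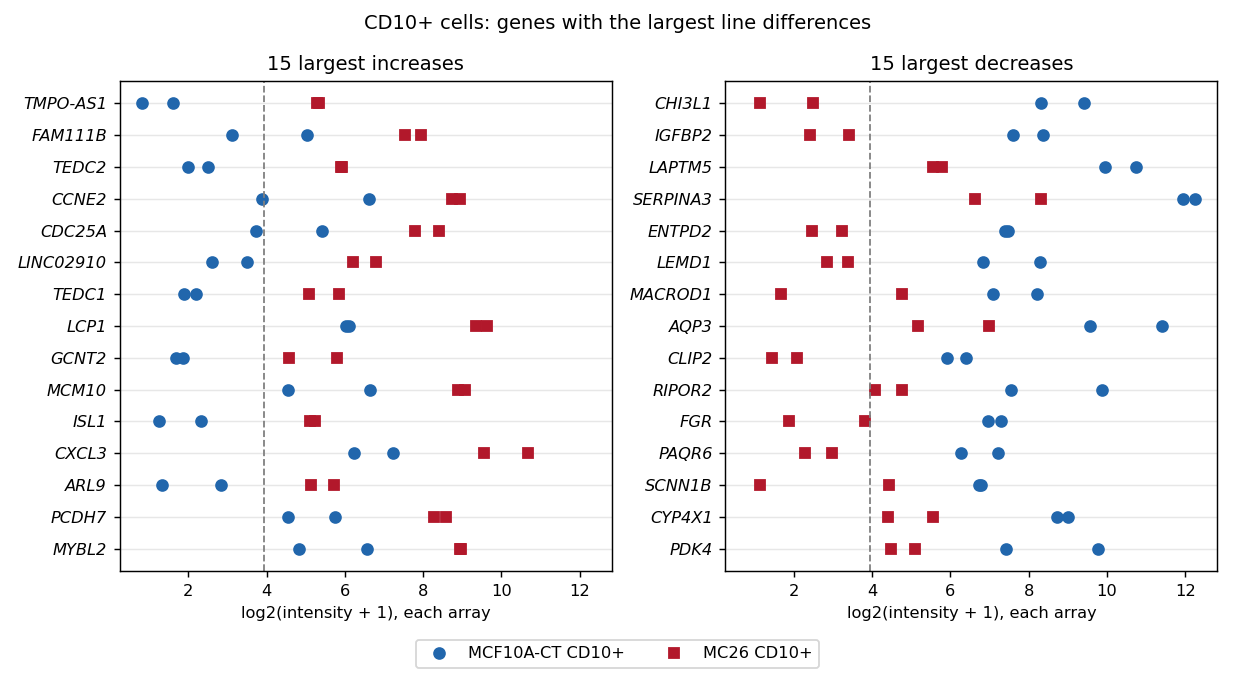
Level of the 15 genes with the largest increases and the 15 with the largest decreases in CD10+ MC26 against CD10+ MCF10A-CT, as log2(intensity + 1) on each of the 4 arrays (circles MCF10A-CT, squares MC26). The dashed line is the brightness limit for testing (log2 3.93), and levels left of it are near background. These genes were picked from those whose 4 arrays do not overlap between the lines.

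Genes that drive entry into S phase and copy DNA were higher in CD10+ MC26 cells. Of the 51 tested, 47 rose (92.2%, against 7.99% of all genes tested), none fell and 4 (POLA1, E2F1, BRCA1 and UNG) did not pass. The median difference was 2.02 against 0.08 over all genes. CDC6, which loads the MCM helicase onto origins, read 621 and 804 in MC26 and 140 and 49.6 in MCF10A-CT, a difference of 3.07 ± 0.50 (8.38-fold, limma adjusted p = 0.00325). TYMS, the thymidylate synthase that makes dTMP for DNA synthesis, read 2554 and 3478 against 940 and 527, 2.08 ± 0.32 higher (adjusted p = 0.0022). In these genes MCF10A-CT replicate 2 lay well below replicate 1, so the spread within the control group was wide.

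RFC2, a subunit of the complex that loads the PCNA clamp, rose by 2.11 ± 0.31 (adjusted p = 0.00165), and GINS2, a subunit of the replicative helicase, by 3.20 ± 0.55 (adjusted p = 0.00378). CCNE2, the cyclin E2 that activates CDK2 before S phase, read 426 and 491 in MC26 against 96.4 and 13.7 in MCF10A-CT (3.60 ± 0.92, adjusted p = 0.019). The CDK2-activating phosphatase CDC25A read 220 and 341 against 41.6 and 12.3 (3.53 ± 0.65, adjusted p = 0.00493). MYBL2, a transcription factor of cycling cells, read 502 and 493 against 94.1 and 27.2, an increase of 3.27 ± 0.59 (adjusted p = 0.0048). CCNE2, CDC25A and MYBL2 were among the 15 largest increases, as were MCM10, a replication initiation factor (3.39 ± 0.95), and FAM111B, a protease gene (3.68 ± 0.97). The tubulin complex genes TEDC1 (3.44) and TEDC2 (3.66), and TMPO-AS1 (4.10), an RNA antisense to TMPO, were near background in MCF10A-CT, so the size of their increase is uncertain.

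The genes of G2 and mitosis were higher too, by less. Of 64 tested, 48 rose, none fell and 16 did not pass, with a median of 1.27. CCNB1, the mitotic cyclin B1, read 2163 and 2833 in MC26 and 863 and 808 in MCF10A-CT (1.57 ± 0.26, limma adjusted p = 0.00352). HMMR, a hyaluronan receptor that also acts at the spindle, read 1440 and 1246 against 471 and 393 (1.64 ± 0.27, adjusted p = 0.00307). NUF2, a kinetochore protein, rose by 1.63 ± 0.24 (adjusted p = 0.002), and UBE2S, the ubiquitin-conjugating enzyme of the anaphase-promoting complex, by 1.23 ± 0.19 (adjusted p = 0.0022). The mean of the list was 8.42 and 8.29 on the log2 scale in the MCF10A-CT arrays and 9.45 and 9.78 in the MC26 arrays, so that the control arrays lay closer together than in the G1-S list. ENI10 is a set of genes that the study picked as a CD10+ signature from the sorted control arrays. Of its cell-division genes 40 of 50 tested rose and 1 (SUSD2) fell (82.0% called, against 13.5% of all genes tested). Their median was 1.44. CEP55, needed for the last step of cytokinesis, rose by 2.25 ± 0.37 (adjusted p = 0.00352), NDC80 of the kinetochore by 2.15 ± 0.37 (adjusted p = 0.00425) and PRC1, a bundler of the central spindle, by 1.58 ± 0.28 (adjusted p = 0.00473). These genes overlap the G2-M list, and since the control arrays compared here helped to choose them, their count is not independent evidence. In the rest of ENI10, 21 of 103 genes tested rose and 22 fell (41.7% called, against 13.5% of all genes tested, median -0.29). They too were chosen for higher values in these CD10+ MCF10A-CT arrays, so their falls are not independent evidence either. This holds for SCNN1B, EHF, S100A4, CFB, IL1RL1 and SFTPB, which are named below. In CD10- cells this part of ENI10 had 26 genes higher and 18 lower, with a median of 0.08.

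These counts changed with single arrays. Without MCF10A-CT replicate 2 the higher genes were 5 of the G1-S and 14 of the G2-M list, and without MC26 replicate 2 they were 9 and 11. Without MC26 replicate 1, 23 of the G1-S list rose. The medians of both lists stayed above 1 on the log2 scale, at 1.63 or more for G1-S and 1.11 or more for G2-M, whichever array was left out.

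**Figure D2:**
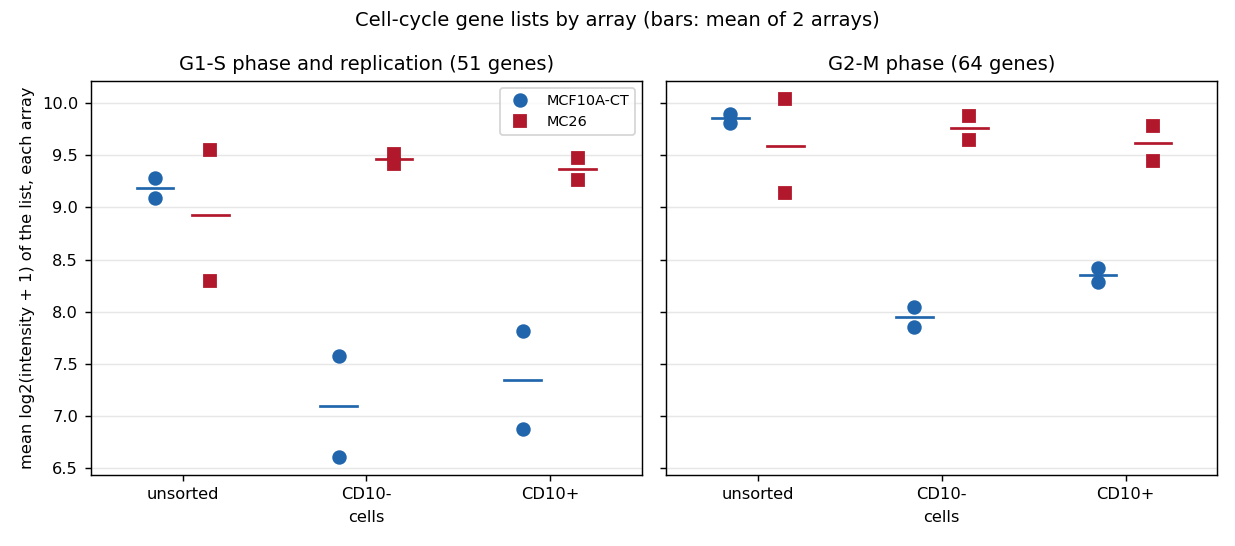
Mean log2(intensity + 1) of the 51 G1-S genes (left) and the 64 G2-M genes (right) on each array of MCF10A-CT (circles) and MC26 (squares), unsorted, CD10- and CD10+, with bars at the mean of 2 arrays. The CD10+ MC26 arrays (9.26 and 9.47 for G1-S) lie level with unsorted MCF10A-CT (9.28 and 9.09), and the sorted MCF10A-CT arrays lie below.

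The promoters of both groups carry known letters. E2F factors, which turn on S-phase genes, bind sites such as TTTCCCGC and TTTGGCGC, and the complex that turns on mitotic genes binds the CHR element TTTGAA. RefSeq promoters (GRCh38.p14, 250 bases before to 50 after the start site) were at hand for 41 of the 51 G1-S genes and 54 of the 64 G2-M genes. On either strand, 20 of 41 G1-S promoters (48.8%) held at least 1 of the E2F words, against 3.67% of 9915 promoters of genes tested and 2.31% of all promoters in the table. TTTGAA stood in 39 of 54 G2-M promoters (72.2%), against 10.0% of genes tested and 15.4% of all. Among the genes that were higher in CD10+ MC26 cells but in neither list, 6.62% of 740 promoters held an E2F word and 15.7% held TTTGAA, and among those that were lower the shares were 2.21% and 9.04% of 542. A match describes the letters only. Windows of 40 bases upstream of the start site follow, 5′ to 3′ on the gene's strand, of genes whose differences are given above, with the word or its reverse complement in capitals. TYMS and GINS2 are in the G1-S list, HMMR and PRC1 in the G2-M list, CEP55 in the cell-division genes of ENI10 and CDC25A in none of these.
CDC25A, chr3:48188438-48188477, minus strand: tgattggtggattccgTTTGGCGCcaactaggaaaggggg
TYMS, chr18:657598-657637, plus strand: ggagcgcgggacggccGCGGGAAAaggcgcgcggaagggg
GINS2, chr16:85688962-85689001, minus strand: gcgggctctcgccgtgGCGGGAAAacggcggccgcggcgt
HMMR, chr5:163460592-163460631, plus strand: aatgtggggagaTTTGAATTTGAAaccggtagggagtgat
PRC1, chr15:90994536-90994575, minus strand: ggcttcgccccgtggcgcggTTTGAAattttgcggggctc
CEP55, chr10:93496480-93496519, plus strand: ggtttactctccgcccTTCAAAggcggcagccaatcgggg
CDC25A, TYMS and GINS2 each show 1 E2F word, on the gene's own strand in CDC25A and on the opposite strand in the other two, and HMMR shows TTTGAA 2 times in a row.

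Among regulators of the cell cycle, 4 of 33 genes of CDK inhibitors, G1 cyclins and p53 targets rose and 3 fell. This was 21.2% called, against 13.5% of all genes tested. CDKN1C, the CDK inhibitor p57, read 33.9 and 62.2 in MC26 and 641 and 362 in MCF10A-CT, so that it was 3.36 ± 0.57 lower (10.3-fold, limma adjusted p = 0.00378). CDK6, which drives G1 progression, rose by 0.83 ± 0.20 (adjusted p = 0.0149), PLK2 rose by 1.03 and SESN1, a stress-induced p53 target, fell by 1.56. The remaining 26 genes did not pass. Without MCF10A-CT replicate 2 none of the list rose and 1 fell, and without MC26 replicate 2 none rose and 3 fell.

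LCP1, which encodes the actin-bundling protein plastin 2, was also among the 15 largest increases. It read 794 and 656 in MC26 and 64.9 and 68.1 in MCF10A-CT, a difference of 3.42 ± 0.24 (10.7-fold, limma adjusted p = 3.23e-06). CXCL3, a neutrophil chemokine, read 1632 and 749 against 149 and 74.8 (3.38 ± 0.58, adjusted p = 0.00378), and PCDH7, a protocadherin of cell adhesion, 382 and 308 against 52.4 and 22.4 (3.28 ± 0.51, adjusted p = 0.0022). DKK1, a secreted Wnt inhibitor, read 2056 and 2619 against 629 and 280 (2.46 ± 0.57, adjusted p = 0.0126). In none of these did the lines overlap, which was so for every gene called. ISL1, a LIM homeobox factor (3.38), GCNT2, an N-acetylglucosaminyltransferase (3.41), ARL9, a small GTPase of the ARF-like family (3.36), and the non-coding LINC02910 (3.45) also rose, from levels near background.

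The largest decrease was in CHI3L1, a secreted chitinase-like glycoprotein. It read 1.19 and 4.62 in MC26, near background, and 675 and 316 in MCF10A-CT, a difference of -7.04 ± 0.91 (limma adjusted p = 0.00104), and its 2 other probe sets fell as well. SERPINA3, the acute-phase protease inhibitor antichymotrypsin, read 97.0 and 317 against 4877 and 3955 (-4.64 ± 0.51, 24.9-fold, adjusted p = 0.000461). IGFBP2, which binds insulin-like growth factors, was near background in MC26 at 4.36 and 9.65 and read 192 and 329 in MCF10A-CT (-5.06 ± 0.75, adjusted p = 0.00184).

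LAPTM5, a lysosomal membrane protein best known from blood cells, was also among the 15 largest decreases and read 46.2 and 54.0 in MC26 against 990 and 1718 (-4.68 ± 0.84, limma adjusted p = 0.00489). AQP3, the water and glycerol channel of epithelia, read 127 and 35.2 against 758 and 2724 (-4.40 ± 0.86, adjusted p = 0.00636), and SCNN1B, a subunit of the epithelial sodium channel, was near background in MC26 and 3.97 ± 1.11 lower (adjusted p = 0.0295). The ectonucleotidase ENTPD2 (-4.58) and the progestin receptor family gene PAQR6 (-4.11) fell to levels near background. So did LEMD1, CLIP2, a microtubule linker, and FGR, a SRC-family kinase, by 4.28 to 4.44. PDK4, which slows pyruvate oxidation, read 32.9 and 21.3 against 171 and 873 (-3.82 ± 0.75, adjusted p = 0.00646), and CYP4X1, a cytochrome P450, 20.1 and 46.1 against 513 and 418 (-3.88 ± 0.70, adjusted p = 0.00493). MACROD1 fell by 4.44 on its main probe set, while its other probe set rose by 1.02 on average, so its direction is uncertain.

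Some genes of cell junctions and of the basement membrane were lower, while most of those measured did not pass. Of 22 epithelial adhesion and junction genes, 4 fell, none rose and 18 did not pass (18.2% called, against 13.5% of all genes tested, median -0.60). CLDN1, a tight junction claudin, read 59.7 and 70.1 in MC26 and 403 and 410 in MCF10A-CT (-2.63 ± 0.36, limma adjusted p = 0.00152). CDH1, the epithelial cadherin, read 721 and 722 against 1538 and 1330 (-0.99 ± 0.24, adjusted p = 0.0169). CLDN7 fell by 1.66 and OCLN, encoding occludin, by 2.07, with the arrays of each line close together. Of 11 desmosome genes, 2 fell (18.2%), PPL (periplakin) by 2.77 and DSP (desmoplakin) by 0.59, and none rose. The junction count was 1 without MCF10A-CT replicate 2 or without MC26 replicate 2, and the desmosome count was 1 without MCF10A-CT replicate 1 or without MC26 replicate 1.

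Of 19 integrin and laminin genes, 7 fell, none rose and 12 did not pass (36.8% called, against 13.5% of all genes tested), with a median of -0.72. ITGB8, an integrin subunit that activates latent TGF-beta, read 860 and 1281 in MC26 and 2658 and 2811 in MCF10A-CT (-1.38 ± 0.26, limma adjusted p = 0.00567). HSPG2, the basement membrane proteoglycan perlecan, fell by 1.71 ± 0.37 (adjusted p = 0.00949), and the laminin chains LAMB2 and LAMB1 by 1.43 and 1.07. ITGB5, ITGB4 and COL7A1 were the other genes of this list that fell. Among matrix metalloproteinases and their inhibitors, 2 of 11 fell (18.2%), MMP28 by 1.94 and TIMP1 by 0.86. The medians of the integrin and of the junction list were below 0 under quantile normalization, under centring on the genes tested and with any of the 4 arrays left out. The calls were less stable, with none of the integrin and laminin list passing without MCF10A-CT replicate 2 or without MC26 replicate 1, and 2 without MC26 replicate 2.

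Of the basal, luminal and mesenchymal lists 20.0%, 18.8% and 18.2% were called, against 13.5% of all genes tested. Of 15 basal and myoepithelial genes 3 fell and none rose, while 8 of the 15 lay above 0 and the median was 0.01. KRT15, a keratin of basal progenitors, read 60.9 and 47.2 in MC26 and 1530 and 249 in MCF10A-CT (-3.50 ± 0.77, limma adjusted p = 0.0101). ITGB4 fell by 1.26, and ACTA2 (smooth muscle actin) by 1.30 on a probe set that its 2 other probe sets contradict. KRT14, a basal keratin, lay the other way without being called, at 2560 and 4030 in MC26 against 1620 and 952 in MCF10A-CT. Without MC26 replicate 2 none of the basal list passed, and 1 did without any other of the 4 arrays. Of 16 luminal genes 3 fell, the receptor ERBB3 by 2.11 ± 0.36 (adjusted p = 0.00378) and the epithelial ETS factors ELF3 and EHF by 3.15 and 2.09. The luminal count was 1 without MCF10A-CT replicate 2 or without MC26 replicate 1. Of 22 mesenchymal genes and EMT factors, SNAI2 rose (0.99 ± 0.25, adjusted p = 0.0172), and S100A4, COL6A1 and TWIST1 fell, S100A4 from 4437 and 2656 in MCF10A-CT to 493 and 474 in MC26 (-2.82 ± 0.39, adjusted p = 0.00152). None of 14 mammary stem and progenitor markers passed. The nearest were CD44 (-0.56, adjusted p = 0.0601) and ITGA6 (0.61, adjusted p = 0.0691). None of the 8 leukocyte and endothelial genes tested passed either, the nearest being ITGAM (0.66, adjusted p = 0.318) and TEK (-0.56, adjusted p = 0.674).

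Of 13 BMP ligands, receptors and SMADs none passed in limma, the nearest being the co-receptors NEO1 (-0.57, adjusted p = 0.108) and RGMB (0.67, adjusted p = 0.116). BMPR1B read 150 and 162 in MC26 and 214 and 130 in MCF10A-CT, overlapping arrays with a difference of -0.09 ± 0.27 (adjusted p = 0.85). Of 18 BMP targets and antagonists 3 rose (16.7%, against 13.5% of all genes), and none did without MC26 replicate 1, or 1 without MCF10A-CT replicate 2 or MC26 replicate 2. ID1, a direct SMAD target that blocks basic helix-loop-helix factors, read 4777 and 6467 against 2820 and 2741, 1.00 ± 0.31 higher (adjusted p = 0.047). FSTL1, a secreted modulator of BMP signals, rose by 0.91 ± 0.23, and SMURF2, a ubiquitin ligase for SMADs, by 1.02 ± 0.27. ID3 read 1258 and 1765 against 332 and 693, and although the arrays did not overlap, the difference of 1.63 ± 1.19 did not pass (adjusted p = 0.378). Of 14 TGF-beta pathway genes (28.6% called), LTBP1 and the receptor TGFBR1 rose (0.91 and 1.01) and LTBP3 and the co-receptor TGFBR3 fell (-1.30 and -1.05). For TGFBR1, 1 of 2 other probe sets went the opposite way. The TGF-beta calls changed with single arrays, and the list median of -0.15 became 0.03 without MC26 replicate 1.

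Of 18 genes of IL6-family receptors and JAK-STAT3 signalling 4 fell, none rose and 14 did not pass (22.2% called, against 13.5% of all genes tested, median -0.34). None fell without MCF10A-CT replicate 2 or without MC26 replicate 2, and 1 without MC26 replicate 1. IL6R, the IL6 receptor alpha chain, read 116 and 118 in MC26 against 368 and 222 (-1.28 ± 0.35, limma adjusted p = 0.0263), and LIFR, the receptor of leukaemia inhibitory factor, 47.7 and 29.8 against 141 and 159 (-1.96 ± 0.44, adjusted p = 0.0109). BCL6, a transcriptional repressor, fell by 2.01 and the kinase PIM3 by 1.30. SOCS3 read 134 and 131 against 31.8 and 61.0, a difference of 1.56 ± 0.70 (adjusted p = 0.142), whereas in unsorted cells it was 5.46 higher in MC26 (adjusted p = 0.00136), with the unsorted control arrays near background at 14.2 and 0.808, so that the size of this difference is uncertain. Tested against each other, the 2 SOCS3 differences were apart by -3.89 ± 0.99 and did not pass (adjusted p = 0.0762).

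Of 20 acute-phase, complement and secretory defence genes, 3 rose and 4 fell (35.0% called, against 13.5% of all genes tested), and the median was -0.75. CFI, a complement-degrading protease, read 299 and 258 in MC26 and 84.7 and 96.6 in MCF10A-CT (1.61 ± 0.26, limma adjusted p = 0.00304), and PTX3, a pattern recognition protein, rose by 2.18 ± 0.38 (adjusted p = 0.00434). CFB, complement factor B, fell by 1.85 ± 0.43 (adjusted p = 0.0128). The list thus held members in both directions. Of 16 chemokines and cytokines (37.5% called), CXCL3, CSF3, IL7R and IL1B rose and CXCL16 and TNFSF10 fell. CSF3, the granulocyte growth factor, read 545 and 576 against 132 and 120 (2.15 ± 0.44, adjusted p = 0.0076). In the interleukin-1 family, IL1RL1, the IL33 receptor, fell by 3.46 ± 0.56 (adjusted p = 0.00316) and IL1RAP, the shared co-receptor, rose by 1.54 ± 0.28 (adjusted p = 0.00493). Of 49 interferon-stimulated genes 6 rose and 3 fell (18.4%, median 0.20), with IFI35, HERC6 and PLSCR1 higher by 1.90, 1.31 and 0.73. None of the interferon list passed without MCF10A-CT replicate 2, and the defence list then had 2 higher and 2 lower and the chemokine list 1 and 1.

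Of 24 NRF2 targets and aldo-keto reductases 7 fell, 1 rose and 16 did not pass (33.3% called, against 13.5% of all genes tested, median -0.34). The genes that fell were 3 without MCF10A-CT replicate 2 or without MC26 replicate 1. ALDH3A1, which oxidises aromatic and fatty aldehydes, read 16.1 and 40.8 in MC26 and 357 and 221 in MCF10A-CT (-3.40 ± 0.49, limma adjusted p = 0.00165), and AKR1C3, a steroid-reducing aldo-keto reductase, 1032 and 1078 against 3762 and 3864 (-1.85 ± 0.25, adjusted p = 0.00152). ABCC3, an efflux pump for conjugates, fell by 2.61 ± 0.48. SLC7A11, the cystine importer, was the gene that rose, from 309 and 208 to 615 and 747 (1.42 ± 0.33, adjusted p = 0.0127). The core NRF2 targets NQO1, GCLM, TXNRD1 and HMOX1 were among the 16 that did not pass.

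Feedback genes of growth factor signalling included ERRFI1, an EGF receptor inhibitor, which read 569 and 700 in MC26 and 2638 and 3847 in MCF10A-CT (-2.33 ± 0.27, limma adjusted p = 0.000588). NRG1, a ligand of ERBB3, rose by 2.80 ± 0.80 (adjusted p = 0.0324) from a level near background, and LRIG1, another receptor inhibitor, fell by 1.48. The list of 22 genes had 3 called in each direction (27.3% called, against 13.5% of all genes tested). Of 10 genes of the IGF axis, IGFBP7 rose (0.97 ± 0.19, adjusted p = 0.00588) and IGFBP2, INSR and IGF2R fell. Of 69 oxidative phosphorylation genes 4 were lower and none higher (5.80%), but 20 were lower and 1 higher under quantile normalization and 15 and 1 with centring, so the count depends on the scaling. In cholesterol synthesis 1 of 25 genes was lower (4.0%). The hypoxia and glycolysis list had 3 of 35 higher and 1 lower (11.4%), and 7 and 2 under quantile normalization. The plot of gene lists gives the remaining counts.

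**Figure D3:**
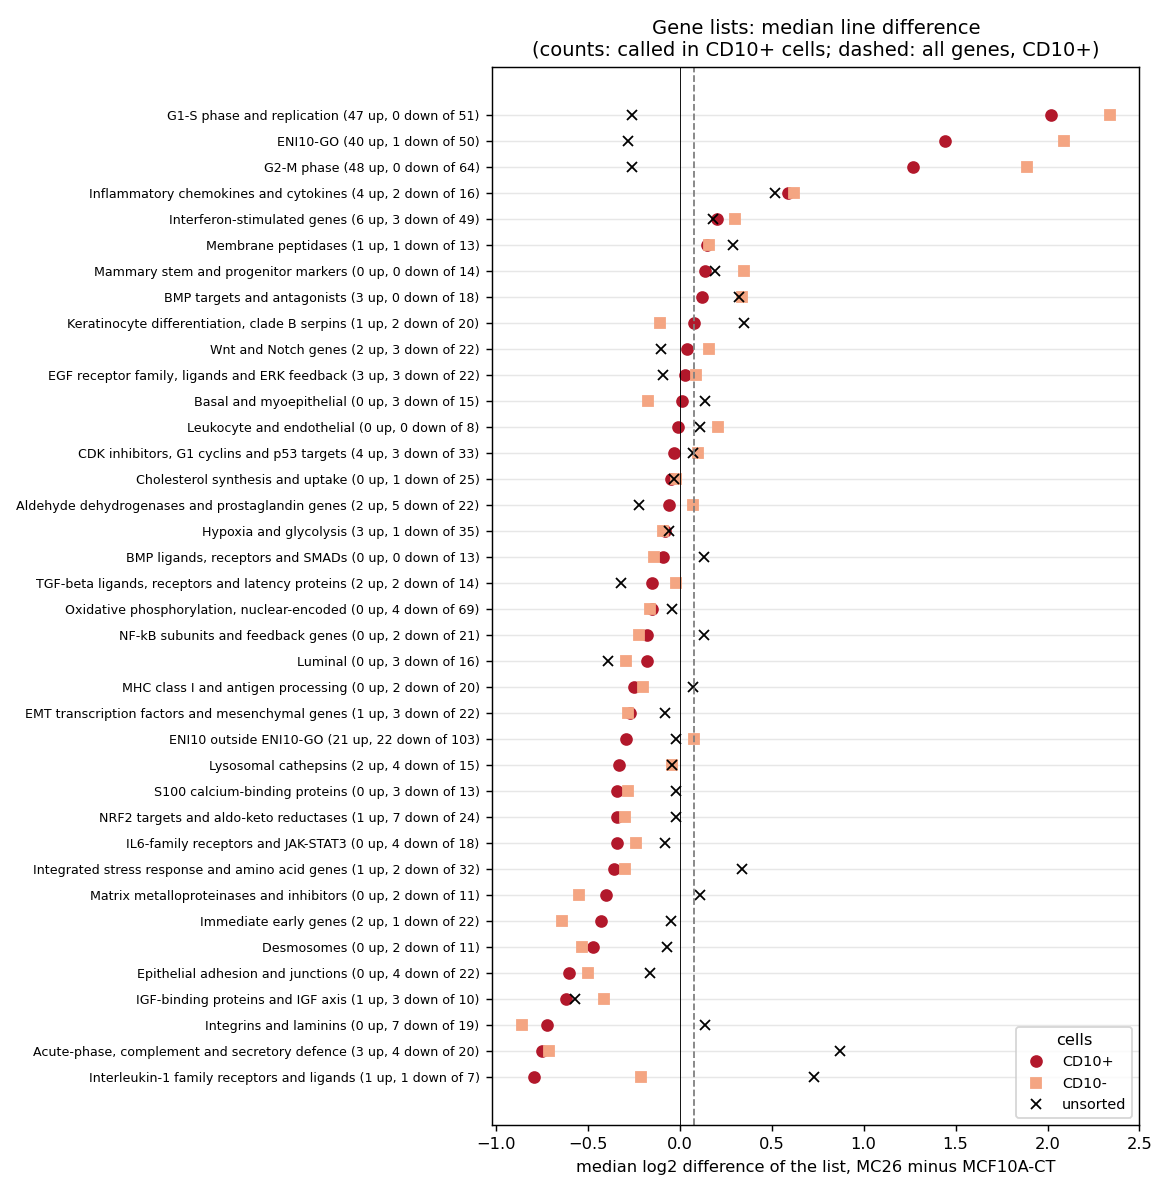
Median log2 difference, MC26 minus MCF10A-CT, of each gene list in CD10+ (circles), CD10- (squares) and unsorted cells (crosses), with the number of members called in CD10+ cells beside the name. The dashed line is the median of all genes in CD10+ cells (0.08). The cell-cycle lists lie far to the right in both sorted populations and at -0.26 to -0.28 in unsorted cells.

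The same line difference in CD10- cells rests on other arrays, and many of the same genes were called. There 2431 genes were called (20% of those tested), 1635 higher (13.4%) and 796 lower (6.54%). In the same direction, 1438 genes were called in both populations, which is 87.7% of those of the CD10+ comparison and 59.2% of those of the CD10- comparison, and none were called in opposite directions. Across all genes the differences in both populations had a Pearson r of 0.892, a description over genes that are not independent and whose sorted fractions may share cultures. The G1-S and G2-M medians were 2.34 and 1.89 in CD10- cells. SERPINA3 (-5.20), CHI3L1 (-7.82), LCP1 (3.07) and CLDN1 (-3.08) also passed there.

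Tested directly, no gene had a line difference in CD10+ cells that differed from that in CD10- cells (limma, 0 of 12171, 0%). At an unadjusted p under 0.05 there were 83 genes, where 609 are expected if no gene differs. The median SE of this difference was 0.419, so that only large differences could be seen. So few genes under 0.05 may mean that the p-values of this contrast run too high. The fit took CD10+ and CD10- arrays as independent, although they may share cultures. With culture as a random block 118 genes were under 0.05 and 0 were called. That block also held the unsorted arrays of the same line and number, so it cannot settle whether the sorted fractions pair. Calling 0 genes therefore does not show that the lines differ equally in both populations. The genes with the smallest p did not pass (adjusted p = 1). They were TFAP4 (2.43 ± 0.73), C2orf81 (2.15 ± 0.65) and CLDN15 (1.89 ± 0.60) with the higher value in CD10+ cells and IGHM (-3.19 ± 0.89), SFTPB (-1.57 ± 0.45) and APOM (-1.44 ± 0.43) with the lower. SFTPB, a surfactant protein, read 31.0 and 42.8 in CD10+ MC26 and 571 and 419 in CD10+ MCF10A-CT, and 37.7 and 35.2 against 193 and 138 in CD10- cells. It was thus lower in MC26 in both populations, by 3.71 ± 0.32 and 2.13. SFTPB is part of ENI10, chosen for higher values in CD10+ than in CD10- control cells, so its place here is not independent evidence.

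**Figure D4:**
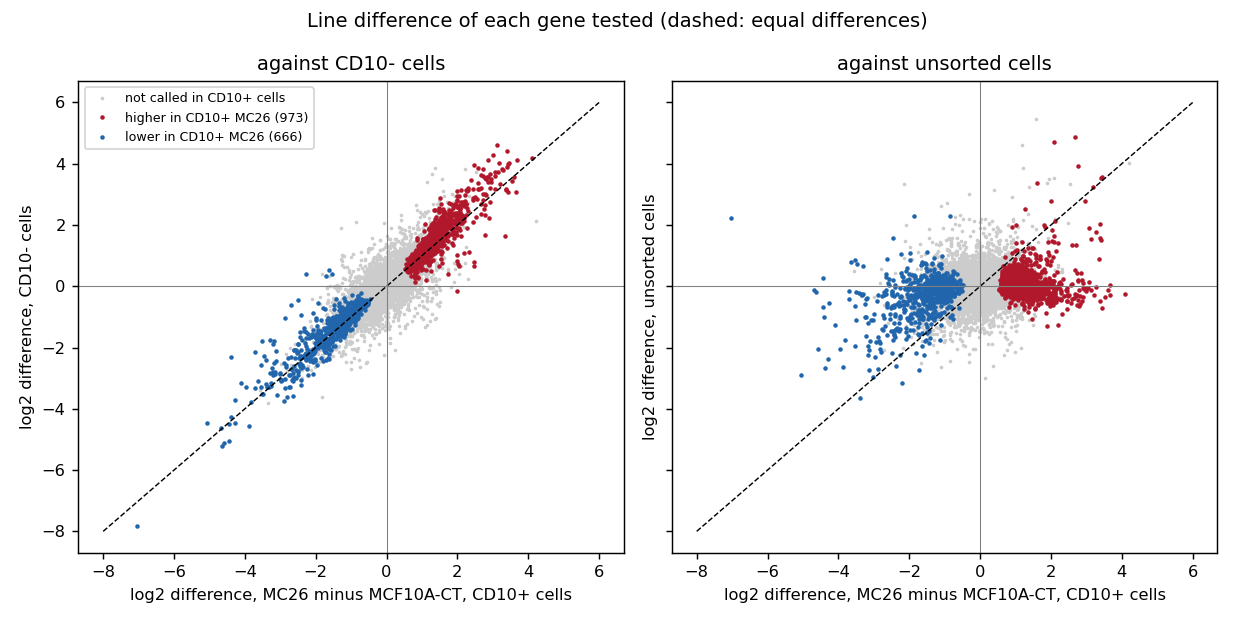
Log2 difference, MC26 minus MCF10A-CT, of each of 12171 genes in CD10+ cells (x axis) against CD10- cells (left) and unsorted cells (right), with genes called in CD10+ cells in colour (973 higher, 666 lower). On the left the coloured points follow the dashed line of equal differences, and on the right most lie near 0 on the y axis.

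In unsorted cells fewer genes were called. There were 39 (0.32%), 24 higher (0.197%) and 15 lower (0.123%), and 22 of them were called in the same direction in CD10+ cells, 56.4% of the unsorted and 1.34% of the CD10+ calls. Of the 1639 genes of the CD10+ comparison, 957 (58.4%) had the same sign in unsorted cells, and the Pearson r across genes was 0.241. The medians of the G1-S and the G2-M list were both -0.26 there. Tested directly, in a contrast added after the data were seen, the line difference in CD10+ cells differed from that in unsorted cells for 47 genes (0.386%), 22 with a higher (0.181%) and 25 with a lower value (0.205%) in CD10+ cells, and for 0 genes without CD10+ MC26 replicate 1. The unsorted MC26 arrays lay apart from each other in the cell-cycle genes, at 8.30 and 9.55 for the G1-S mean.

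The 22 genes called in both were singled out after their values were seen. LCP1 differed in unsorted cells by much the same amount, at 896 and 773 in MC26 against 79.6 and 62.5 in MCF10A-CT (3.54, limma adjusted p = 1.97e-06). CFI (3.36 in unsorted cells), NRCAM, a neural cell adhesion molecule (2.77), STEAP1, a metalloreductase (1.65), SERPINB3, a protease inhibitor of squamous epithelium (4.71), and LTBP1 (1.94) were among the 10 that were higher in MC26. PPP2R2C, GSDMC, SAMSN1 and CNRIP1 were the others, CNRIP1 from near background.

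Of the 12 that were lower, ALDH3A1 fell by 3.65 in unsorted cells, against -3.40 in CD10+ cells. ST3GAL5, the synthase of the ganglioside GM3, read 56.2 and 34.1 in CD10+ MC26 and 338 and 361 in CD10+ MCF10A-CT (-2.97 ± 0.31, limma adjusted p = 0.000288) and fell by 2.32 in unsorted cells. UGT8, the galactosyltransferase of galactosylceramide, differed by -1.72 ± 0.29 in CD10+ and by -2.72 in unsorted cells, and S100A4 differed by -2.82 in CD10+ and -2.05 in unsorted cells. P3H2, a collagen prolyl hydroxylase (-2.38), GPM6B, a membrane proteolipid (-2.83), SEMA3C, a secreted semaphorin (-1.54), BIN1, AUTS2, GATM, PXYLP1 and METRN completed the group, AUTS2 and GATM near background in MC26.

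CFB and S100A8 were called in opposite directions. CFB was lower in CD10+ MC26 (89.6 and 120 against 541 and 264) and higher in unsorted MC26 (80.2 and 222 against 28.9 and 23.9). S100A8, a calcium-binding alarmin, read 5667 and 6682 against 11300 and 10850 in CD10+ cells (-0.85 ± 0.27, limma adjusted p = 0.049), and 12570 and 9804 against 3303 and 1545 in unsorted cells (2.30, adjusted p = 0.000511). In both genes the CD10+ control arrays were several times brighter than the unsorted control arrays. The other S100A8 probe set did not fall in CD10+ MC26.

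**Figure D5:**
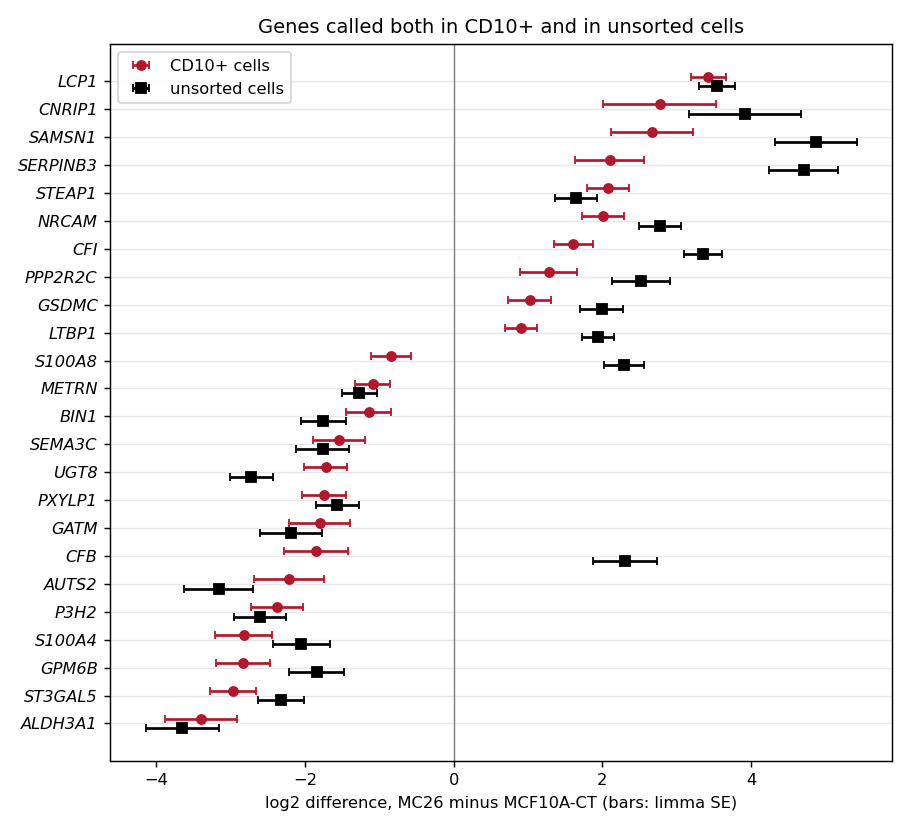
Log2 difference, MC26 minus MCF10A-CT, of the 24 genes called both in CD10+ cells (circles) and in unsorted cells (squares), with bars of 1 SE from limma. LCP1 and ALDH3A1 lie at much the same value in both, and CFB and S100A8 lie on opposite sides of 0.

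Set beside this, CD10+ cells of M1B26, which were compared with the same 2 CD10+ MCF10A-CT arrays, gave 3219 genes called (26.4%), 2571 higher (21.1%) and 648 lower (5.32%). The G1-S list had 47 genes higher and a median of 1.86, and the G2-M list 58 higher and 1.29. The epithelial adhesion list had 14 of 22 lower at a median of -1.65 in M1B26 and 4 of 22 at -0.60 in MC26, and CDH1 read 39.6 and 54.2 in M1B26 against 721 and 722 in MC26. SERPINA3 read 5027 and 5508 in M1B26. The mesenchymal list had 16 higher and none lower at a median of 1.56 in M1B26, where MC26 had 1 higher and 3 lower at -0.27. Since both comparisons share their controls, no overlap between them is given.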

How the data were processed

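RNA was hybridised to Affymetrix HG-U133 Plus 2.0 arrays. The submitters' processing notes name Expression Console and MAS5, with no versions, and the authors deposited linear intensity values, scaled so that every array has the same median (16.7). Upper quartiles ran from 95.1 to 124, so quantiles were not equalised; the methods name RMA, but the table holds MAS5-type values.

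Of 54675 probe sets, 41091 had 1 gene, 1801 several and 11721 none in GEO's platform annotation, updated through the RefSeq gene table (GRCh38.p14). The probe set with the highest mean over all arrays stood for each gene. Genes whose mean was no higher than the median of all probe sets' means (log2 3.93, intensity 14.3) were not tested, and a group under that level is called near background. Log2(intensity + 1) was fitted with limma 3.58.1 in R 4.3.3 as 9 group means over all 18 arrays, with an intensity trend. Tests were two-sided and Benjamini-Hochberg adjusted within each contrast (residual degrees of freedom 9, prior 6.28). The code was tested on simulated data. The median SE of the CD10+ difference was 0.296, and the number of arrays limits the precision. Replicate correlations were 0.975 in CD10+ MC26 and 0.958 in CD10+ MCF10A-CT, against 0.9 to 0.938 between the lines. P-values measure the spread between these arrays only.

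The genes, the 38 gene lists (1144 of 1224 entries matched) and the tests were chosen with earlier results of these data known, so no list is independent support. Named genes were drawn from the 15 largest increases and 15 largest decreases whose arrays did not overlap, up to 4 called members of each list by smallest p (otherwise up to 2, said not to pass), the 3 smallest p each way for the difference between CD10+ and CD10- cells, and MME, BMPR1B, ID1, ID3 and SOCS3. Others are named where a count of few genes needed it. XIST, Y-linked, unnamed and LOC genes were not named. Of the 30 largest, 21 of 22 other probe sets had the same direction. The probe sets of MCM10, LAPTM5, MACROD1, CLIP2, FGR, UBE2S, CCNB1, RFC2, GINS2, PRC1, ID1, S100A4, S100A8, CFB, CDH1 and SERPINB3, among others, may bind related transcripts. The alternatives were another pseudocount (16), no filter, quantile normalization, centring, the median probe set, no trend, an unmoderated test, the arrays of the contrast only, replicate blocks and leaving out each array.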

Additional observations from a re-analysis of the deposited data

Results flagged for a closer look

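The line difference in CD10+ cells was set against that in unsorted cells by a test of the difference itself, a contrast added after the data were seen. In limma 47 genes passed (0.386% of those tested), 22 with a higher and 25 with a lower line difference in CD10+ cells (0.181% and 0.205%). At an unadjusted p under 0.05 there were 2032. Of the genes that are named, the lowest values were those of CHI3L1 (-9.26 ± 1.28, adjusted p = 0.011), S100P (-5.49), SERPINA3 (-4.46 ± 0.72, adjusted p = 0.0189), IL1RL1 (-4.19) and CFB (-4.15). CHI3L1 was 7.04 lower in CD10+ MC26 and 2.21 higher in unsorted MC26, the second without passing. CHI3L1 lay near background in CD10+ MC26 and TEDC1 in CD10+ MCF10A-CT, so the size and order of their values are uncertain. The highest values were those of TEDC1 (4.14), MCM5 (3.32), CCN2 (3.19), AAAS (3.15) and CFAP251 (3.0). MCM5, a subunit of the replicative helicase, read 558 and 772 in CD10+ MC26 and 144 and 67.0 in CD10+ MCF10A-CT, but 234 and 514 against 507 and 544 in unsorted cells. CFAP251, a gene of motile cilia, read 288 and 246 against 30.8 and 36.2 in CD10+ cells and 245 and 295 against 227 and 341 in unsorted cells. S100P and AAAS did not pass in CD10+ cells on their own. The count of 47 changed with single arrays and with the processing, falling to 0 without CD10+ MC26 replicate 1. Sorted and unsorted cells also differed in handling, and its part was not tested.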

How the results depend on the processing

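The CD10+ count of 1639 lay between 1176 and 2231 under the other pseudocount, filter, scaling, probe set, trend and sample choices, with 1158 higher and 1073 lower under quantile normalization. The unmoderated test on the 4 arrays alone called 0 (1731 at an unadjusted p under 0.05), and 0 in both cell-cycle lists. Leaving out an array gave 234 (without MCF10A-CT replicate 2) to 1900 genes, 5 to 48 of the G1-S list and 11 to 42 of the G2-M list. For CD10- cells (2431) the unmoderated test gave 1, the arrays of the contrast alone 988, and leaving out an array 545 (without MCF10A-CT replicate 2) to 3010, with 718 and 1058 without MC26 replicates 1 and 2. Quantile normalization and centring moved its split to 1412 higher and 1314 lower and to 1484 and 1311. For unsorted cells (39) they gave 0, 13 and 16 (without MCF10A-CT replicate 2) to 149 (without MC26 replicate 1). The difference between CD10+ and CD10- cells kept 0 throughout, with 76 to 461 genes at an unadjusted p under 0.05. The 47 genes of the CD10+ against unsorted difference became 19 without the filter, 324 under quantile normalization, 130 with centring, 14 without the trend, 0 in the unmoderated test, 11 on its own arrays, 304 with culture as a random block, and 0 (without CD10+ MC26 replicate 1) to 525 (without unsorted MC26 replicate 2). It was 22 and 1 without unsorted MCF10A-CT replicates 1 and 2, 105 and 4 without CD10+ MCF10A-CT replicates 1 and 2, 12 without unsorted MC26 replicate 1 and 13 without CD10+ MC26 replicate 2. Between the lines, replicate numbers did not pair the CD10+ arrays (their deviations correlated at -0.2). The CD10+ and CD10- fractions of the same line were not compared in this way. With arrays of the same line and number, sorted and unsorted, taken as 1 culture, the correlation that limma fitted within cultures was 0.131. With the number as a block the CD10+ count was 1723, with culture as a random block 1721, and with crossed numbers 1858. Of 158 named genes called in CD10+ cells, none changed sign except with the median probe set, where ECE2 became -0.10, ACTA2 0.64 and GATM 0.08. No cause of these changes was tested. With 2 arrays per group, smaller differences could not be seen.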
